A study of Mus musculus with 8 samples.

Results

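The effect of the mutant genotype in atrioventricular (AV) cushions was set against its effect in ventricles of the same stage, gene by gene. For each gene the mutant minus wild type difference in ventricles was subtracted from the mutant minus wild type difference in cushions, on the log2 scale. A positive value therefore means that the mutant level, relative to wild type, was higher in cushions than in ventricles. All 8 libraries of the study enter this difference of effects. Of 14940 gene symbols tested, 13058 had a mean of at least 1 CPM (reads of the gene per library size, scaled by TMM) in both tissues and are described here, so that a gene nearly silent in 1 tissue does not decide the picture.

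AV cushions are swellings of matrix and mesenchyme in the AV canal, from which valves and septa of the heart form. They are lined by endocardium, the endothelium inside the heart, which also lines the trabeculated muscle of the ventricle, so that both tissues hold endocardial cells in a different setting. Klf2 encodes a transcription factor that endothelial cells induce under blood flow, and WNT ligands made in the cushion act on the mesenchyme below.

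The 4 groups were mutant cushion, wild type cushion, mutant ventricle and wild type ventricle, with 2 libraries each, from C57BL/6 embryos at E12.5. The mutant genotype is labelled NfatC1+/- with Klf2 floxed on both alleles (KLF2fl/fl). Controls are labelled wild type, while the series design names floxed Klf2 mice as the partner group, so the controls may also carry the floxed allele. The labels do not say whether NfatC1+/- marks the loss of 1 copy or an allele that carries a recombinase, nor in which cells Klf2 was deleted. Whether paired libraries are separate embryos is not stated either, so p-values reflect only how much these samples varied, and that variation may be technical.

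Library totals lay between 18955733 and 26579215 counts, and 1 CPM stood for at least 18.7 reads. Summed genes of valve and cushion matrix were higher in cushions (13390 to 29640 CPM) than in ventricles (4514 to 9213 CPM). Sarcomere genes summed to 43230 to 58520 CPM in cushions, against 60860 to 118700 CPM in ventricles, so the cushion samples held muscle RNA as well. On the first principal component mutant cushion replicate 2 was distant from the remaining cushion libraries, at -22.8, against -54.9 to -46.3 for the other 3. In bulk tissue, fewer cells of a type and less RNA per cell cannot be told apart.

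Klf2 itself was low in mutants of both tissues. It was at 1.96 and 0.651 CPM in mutant cushions, against 17.3 and 12.9 CPM in wild type cushions. In ventricles it was at 0.736 and 0.625 CPM in mutants, against 11.7 and 9.19 CPM in wild type. Every mutant library was below every wild type library in each tissue. Klf2 thus had a cushion log2 fold change of -3.54 ± 0.42 (SE) and a ventricle one of -3.93 ± 0.45. Neither passed with edgeR (adjusted p = 0.145 and 0.269), and each did when the replicate number was added as a block (2.86e-05 and 4.56e-05). The difference of effects was 0.38 with a 95% interval from -1.02 to 1.79, which holds 0 and is wide. Its sign turned to -0.59 without mutant cushion replicate 1.

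Wnt9b, a WNT ligand gene of the endocardium, was at 6.96 and 6.90 CPM in mutant cushions, against 34.9 and 34.4 CPM in wild type cushions. Its ventricle level was 0.654 and 0.357 CPM in mutants, against 2.83 and 1.11 CPM in wild type. Mutant libraries were below wild type libraries in both tissues, at levels far lower in ventricles. The log2 fold changes of -2.32 and -1.94 differed by -0.38 (95% interval -1.75 to 0.98), so no difference between tissues was resolved at these levels. The cushion change passed with the block (adjusted p = 4.99e-04) and the ventricle change did not (adjusted p = 0.452). Nfatc1, an endocardial transcription factor gene, gave a difference of -0.41 with an interval from -2.48 to 1.65, and its mutant and wild type libraries overlapped in both tissues.

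Across all genes, no difference of effects passed the threshold of an adjusted p of 0.05 in edgeR's quasi-likelihood test. The smallest adjusted p was 0.414, shared by 1630 symbols. At an unadjusted p under 0.05 there were 1776 of 14940 symbols (11.9%), and DESeq2 and limma-voom also made 0 calls, with smallest adjusted p of 0.226 and 0.438. Among the described genes, 1012 were positive and 698 negative at that unadjusted level (7.75% and 5.35%). The described genes had a median difference of -0.00 and an SD of 0.44, and 132 lay at 1 or more (1.01%) and 162 at -1 or less (1.24%). A difference of at least 1 log2 unit, in either direction, was thus found in 2.25% of the described genes. Positive values made up 49.6% and negative values 50.4%.

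Taken alone, neither genotype effect had a call in edgeR without the block. At an unadjusted p under 0.05 there were 918 higher and 781 lower symbols in mutant cushions, and 177 and 165 in mutant ventricles. DESeq2 called 6 higher and 19 lower in cushions and 1 lower in ventricles, and limma-voom made 0 calls in either. Under the block 129 symbols passed in cushions (0.863%) and 1, Klf2, in ventricles (0.00669%). For the difference of effects the block left 0 calls, with a smallest adjusted p of 0.0852 shared by 439 symbols. Under the block 3594 symbols had an unadjusted p under 0.05 (24.1%). With the block, leaving out single libraries gave very different counts. There were 580 positive and 801 negative calls without mutant cushion replicate 1, and 477 and 816 without mutant ventricle replicate 1. Without wild type ventricle replicate 1 there were 360 and 79, and without mutant cushion replicate 2 there were 183 and 28. There were 0 and 2 calls without wild type cushion replicate 2, and none without any of the other 3 libraries. Single genes below are therefore described by their levels and by the interval of the difference, and none of the differences passed with all 8 libraries.

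Among genes whose libraries were separate in both tissues, opposite effects outnumbered effects in the same direction, by a margin that was smaller after the correction for GC content and length described below. Within cushions, mutant libraries lay above all wild type libraries for 26% of the described genes and below them for 24%, and within ventricles for 13% and 14.3%. They lay above in cushions and below in ventricles for 1044 genes (8%), and the other way round for 728 (5.58%). Fewer genes had separate libraries in the same direction, with 198 higher in mutants of both tissues (1.52%) and 162 lower in both (1.24%). Over the described genes the cushion and ventricle effects had a Pearson correlation of -0.233 and a Spearman correlation of -0.383. These are descriptions across genes, which share the 8 libraries and are not replicates. With so few libraries a group, separate libraries are also common without any effect, so separation alone does not show one.

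**Figure D1:**
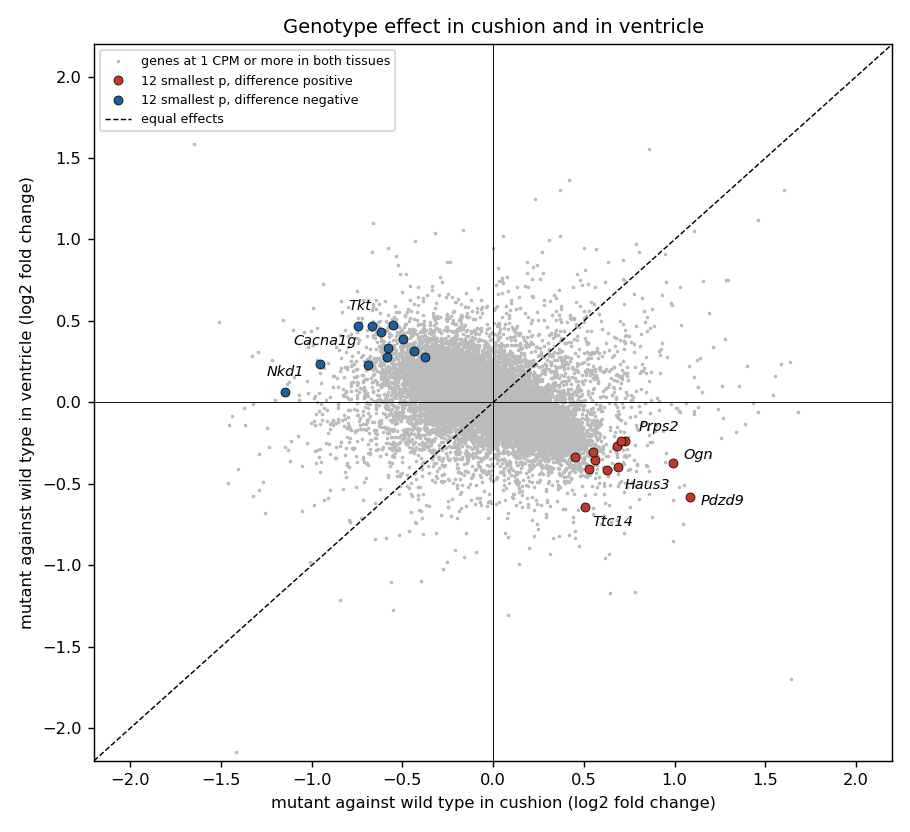
Log2 fold change of mutant against wild type in cushions (x axis) and in ventricles (y axis) for the described genes (grey) and for the 12 genes in each direction with the smallest p of the difference (red positive, blue negative). The dashed line marks equal effects, 5 genes lie outside the axes at 2.2, and the coloured genes sit off the line in the lower right and the upper left.

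WNT feedback genes, which WNT signalling induces and which in turn mostly restrain it, mostly had negative differences. Of 18 listed genes 12 were described, the other 6 being under 1 CPM in at least 1 tissue, and 11 of these 12 had a negative difference, against 50.4% of all described genes. Their median difference was -0.37, beside -0.00 over all described genes, and 3 had an unadjusted p under 0.05 (background 5.35%). The list had been chosen with the cushion values of these libraries known, so its direction is not independent evidence. Leaving out each library in turn gave medians from -0.58 to -0.34.

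Nkd1 encodes an inhibitor of WNT signalling that acts inside the cell on Dishevelled. It was at 12.4 and 10.4 CPM in mutant cushions, against 25.2 and 25.3 CPM in wild type cushions. The ventricle libraries were at 6.09 and 7.37 CPM in mutants, against 6.09 and 6.76 CPM in wild type. Cushion libraries were separate and ventricle libraries overlapped. The difference of effects was -1.21 ± 0.25 (SE), with a 95% interval from -1.79 to -0.64, and it did not pass with edgeR (adjusted p = 0.414, and 0.0852 with the block). In cushions alone Nkd1 fell under the block, by 1.15 on the log2 scale (adjusted p = 0.00626).

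Axin2, a scaffold gene of the complex that degrades beta-catenin, showed the same arrangement of libraries. It was at 10.4 and 9.94 CPM in mutant cushions, against 23.05 and 25.2 CPM in wild type cushions, with no overlap. In ventricles it was at 3.02 and 2.10 CPM in mutants and at 3.26 and 2.48 CPM in wild type, with overlap. The difference was -1.09 (95% interval -1.81 to -0.36). Replicates 1 gave -1.04 and replicates 2 gave -1.10. Axin2 fell in cushions under the block (edgeR adjusted p = 0.00643).

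Apcdd1 encodes a membrane protein that inhibits WNT signalling. It was at 44.5 and 33.3 CPM in mutant cushions, against 117 and 96.95 CPM in wild type cushions. Its ventricle level was 8.13 and 6.96 CPM in mutants, against 12.03 and 9.24 CPM in wild type. Mutant libraries were lower in both tissues, and the log2 fold change was -1.46 in cushions and -0.49 in ventricles. The cushion change passed under the block (edgeR adjusted p = 2.86e-05). The difference of -0.97 had an interval from -1.61 to -0.32 and was -0.95 after correction for GC content and length.

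Among 9 described WNT ligand genes 6 had a negative difference, with a median of -0.38 that became -0.00 after correction for GC content and length. Wnt16 was at 3.14 and 3.34 CPM in mutant cushions, against 9.44 and 8.39 CPM in wild type cushions, while its ventricle libraries lay between 0.893 and 1.55 CPM in mutants and 1.23 and 1.48 CPM in wild type. The cushion libraries were separate and the ventricle libraries overlapped. The difference of -1.32 (interval -2.29 to -0.34) was larger after the correction, at -1.78, and Wnt16 fell in cushions under the block (edgeR adjusted p = 0.0164). Wnt5b had opposite effects, at 9.07 and 8.12 CPM in mutant cushions and 10.7 and 14.4 CPM in wild type cushions, and at 8.17 and 9.47 CPM in mutant ventricles and 6.68 and 7.39 CPM in wild type ventricles. Its difference of -0.88 was -0.38 after the correction. The WNT co-receptor gene Lrp5 and the receptor gene Lrp1 had differences of -1.01 and -0.87. Lrp1 had an interval from -3.85 to 2.12, and its replicates 1 and 2 were over 2-fold apart in every group. Lrp5 and Lrp1 were at -0.67 and -0.45 after the correction. Both fell in cushions under the block without the correction (edgeR adjusted p = 0.0252 and 0.00481). Neither fall passed with block and correction (edgeR adjusted p = 0.111 for each).

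**Figure D2:**
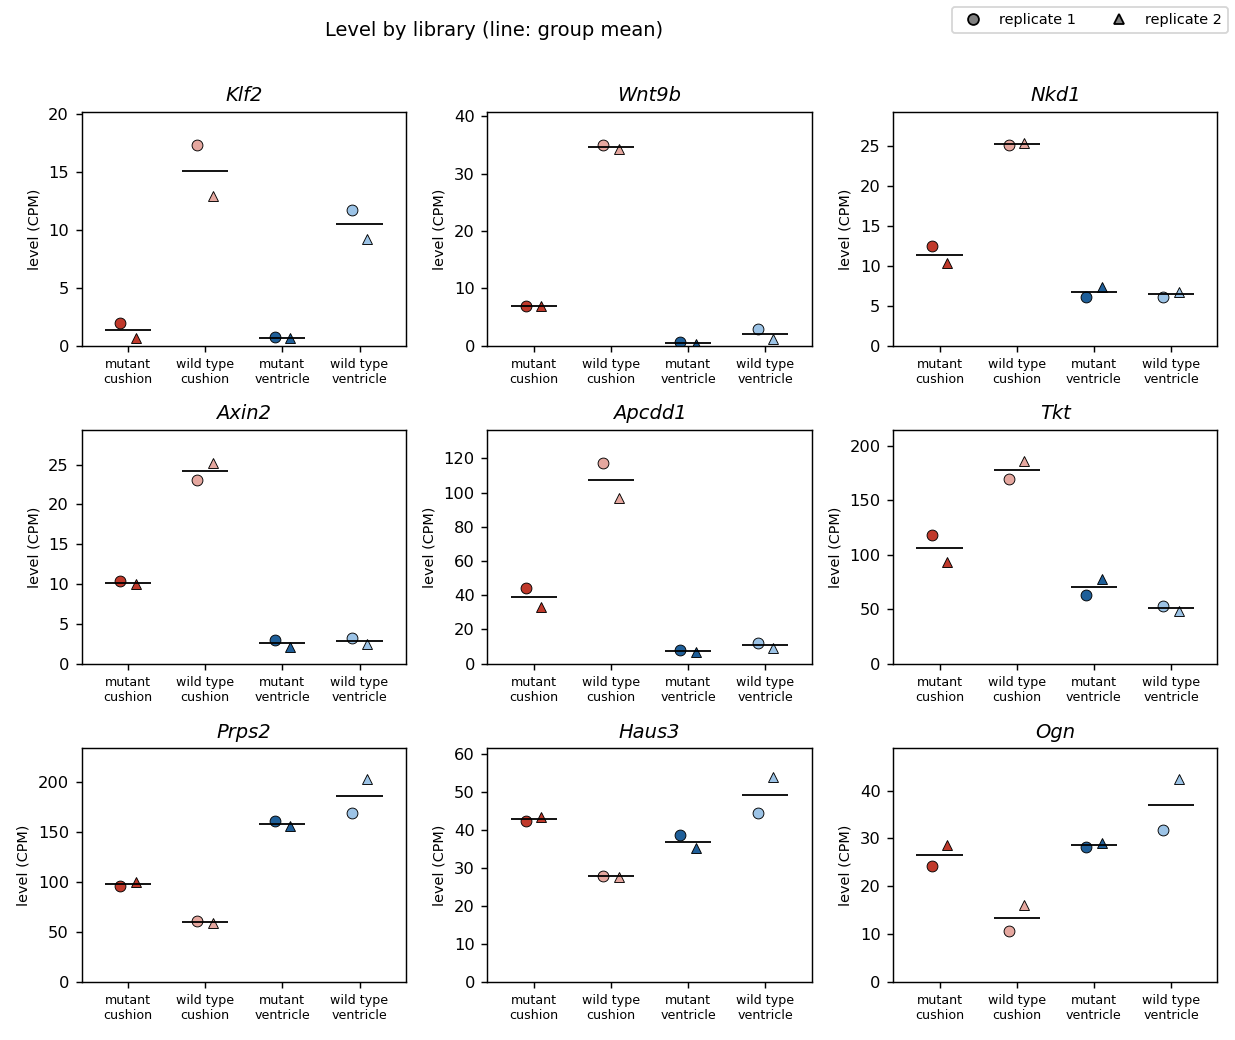
Level in CPM (y axis, from 0) of 9 genes in the 2 libraries of each group, with circles for replicate 1, triangles for replicate 2 and a line at the group mean. Nkd1 and Axin2 are lower in mutant than in wild type cushions with overlapping ventricle libraries, Tkt and Prps2 have opposite effects in the 2 tissues, and Klf2 is low in all mutant libraries.

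Genes with the smallest p among the negative differences were mostly lower in mutant cushions and higher in mutant ventricles. Ranking by the difference favours this pattern, since it uses the same values. Of the 12 ranked first, 10 had separate libraries in both tissues with opposite effects, and the exceptions were Nkd1 and Cacna1g, whose ventricle libraries overlapped. Their cushion log2 fold changes lay between -1.15 and -0.38 and their ventricle ones between 0.06 and 0.47. In all 12 the cushion effect was the larger.

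Tkt, the transketolase gene of the pentose phosphate pathway, had the smallest p of all. It was at 119 and 93.6 CPM in mutant cushions, against 169.8 and 186 CPM in wild type cushions. The ventricle libraries were at 62.8 and 77.6 CPM in mutants, against 52.9 and 48.5 CPM in wild type. Libraries were separate in both tissues, with mutants lower in cushions and higher in ventricles. The difference was -1.22 ± 0.23 (SE), with an interval from -1.74 to -0.69 and an edgeR unadjusted p of 5.52e-04 that became 0.414 after adjustment. In cushions alone Tkt fell under the block (edgeR adjusted p = 0.0263).

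Lipid handling was represented by Angptl4 and Plin2. Angptl4, which encodes a secreted inhibitor of lipoprotein lipase, was at 13.4 and 10.85 CPM in mutant cushions and at 20.3 and 18.3 CPM in wild type cushions. In ventricles it was at 4.62 and 6.07 CPM in mutants and at 3.90 and 3.80 CPM in wild type. The difference of -1.14 (interval -1.80 to -0.48) was nearly the same after correction for GC content and length, at -1.08. Plin2, which encodes a coat protein of lipid droplets, had a smaller difference of -0.65, with opposite effects of -0.38 in cushions and 0.28 in ventricles.

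Matrix genes were the collagen-like Emid2 and the small proteoglycan gene Fmod (fibromodulin). Fmod was at 22.1 and 16.9 CPM in mutant cushions and at 32.0 and 30.8 CPM in wild type cushions, against 13.5 and 13.6 CPM in mutant ventricles and 11.3 and 11.8 CPM in wild type ventricles. Emid2 had a difference of -1.03 and Fmod of -0.92. Fmod fell in cushions under the block (edgeR adjusted p = 0.0435), but did not pass with block and correction (edgeR adjusted p = 0.0869). Cacna1g, which encodes a T-type calcium channel, was at 17.0 and 13.4 CPM in mutant cushions and at 30.4 and 28.4 CPM in wild type cushions, and its ventricle levels were 2.78 and 2.28 CPM in mutants and 2.51 and 1.80 CPM in wild type. It fell in cushions under the block, by 0.96 on the log2 scale (edgeR adjusted p = 0.00991). With block and correction this fall did not pass (edgeR adjusted p = 0.0987). The other genes of the 12 were Ralgds (a Ral exchange factor, -1.05), Tbl3 (ribosome biogenesis, -0.75), Ctu2 (tRNA thiolation, -0.91), Cdc42ep4 (a Cdc42 effector, -0.86) and Sertad1 (a cell cycle regulator, -0.89).

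The reverse pattern, higher in mutant cushions and lower in mutant ventricles, held for all 12 genes with the smallest p among the positive differences. Here too the ranking used the same values and favours such a pattern. Cushion log2 fold changes lay between 0.45 and 1.08 and ventricle ones between -0.64 and -0.23. Under the block Haus3, Cenpw, Tmem47, Pdzd9 and Rnf128 rose in cushions (edgeR adjusted p from 0.0181 to 0.0497). None of these rises passed with the block and the correction for GC content and length (edgeR adjusted p from 0.0658 to 0.370).

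Haus3, which encodes a subunit of the augmin complex of the spindle, was at 42.4 and 43.5 CPM in mutant cushions, against 28.0 and 27.7 CPM in wild type cushions. Its ventricle level was 38.8 and 35.2 CPM in mutants, against 44.5 and 54.1 CPM in wild type. Libraries were separate in both tissues. The difference was 1.04 ± 0.20 (SE), with an interval from 0.59 to 1.49, an edgeR unadjusted p of 5.57e-04 and an adjusted p of 0.414.

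Prps2 encodes an enzyme that makes the ribose donor for nucleotide synthesis. It was at 96.3 and 100.2 CPM in mutant cushions, against 60.4 and 58.6 CPM in wild type cushions, and at 161 and 156 CPM in mutant ventricles, against 169 and 203 CPM in wild type ventricles. The spread between libraries of a group was small in cushions. The difference of 0.96 had an interval from 0.54 to 1.38, and the cushion rise of 0.72 passed under the block (edgeR adjusted p = 0.00913).

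Ogn encodes osteoglycin, a small leucine-rich proteoglycan. It was at 24.3 and 28.7 CPM in mutant cushions, against 10.6 and 16.0 CPM in wild type cushions, and at 28.2 and 29.1 CPM in mutant ventricles, against 31.6 and 42.4 CPM in wild type ventricles. Its difference was 1.36 (interval 0.65 to 2.07), opposite in sign to that of the other small proteoglycan gene, Fmod. The cushion rise of 1.003 passed under the block (edgeR adjusted p = 0.00696), but not with block and correction (edgeR adjusted p = 0.118). The other genes of this 12 were Cenpw (0.95, a kinetochore protein), Smc4 (0.92, a condensin subunit), Pdzd9 (1.66), Ttc14 (1.15), Tmem47 (1.08, a junction membrane protein), Rnf128 and Pcnp (0.94 each), Echdc1 (0.85, a metabolite repair enzyme) and Tmem161b (0.79).

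**Figure D3:**
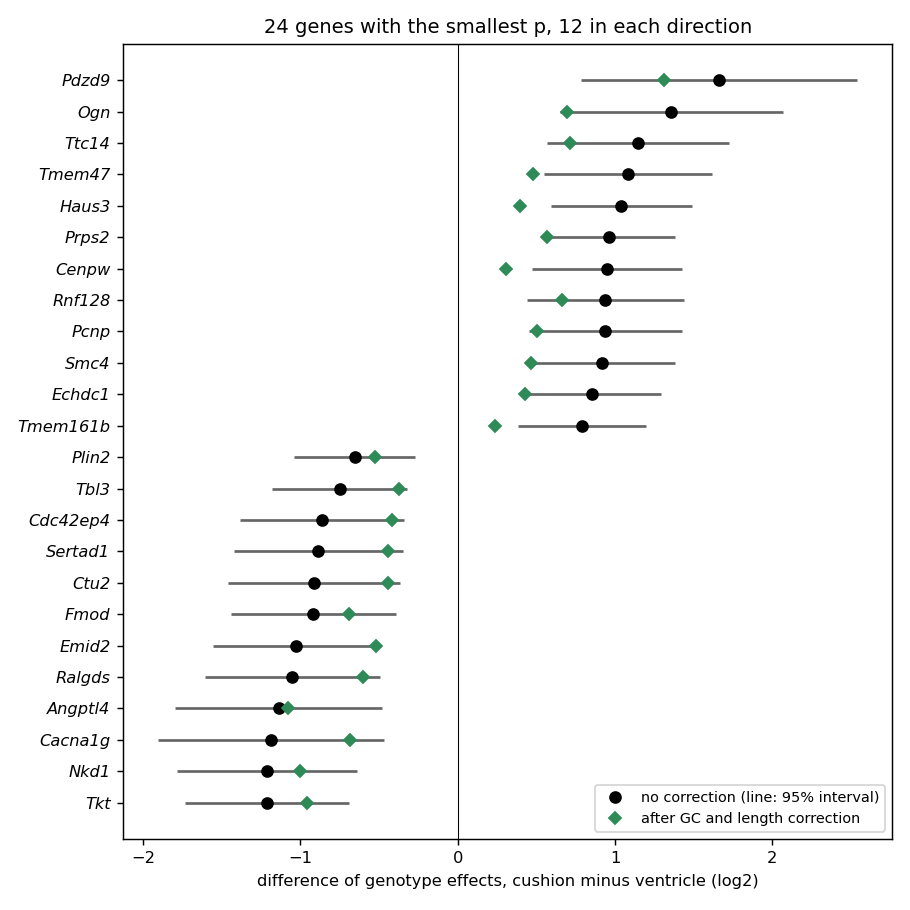
Difference of genotype effects (x axis, log2, cushion minus ventricle) of the 24 genes with the smallest p, 12 in each direction, with its 95% interval (black) and its value after correction for GC content and length (green). Every green point lies nearer 0 than its black point and on the same side of 0.

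The 24 genes differed in base composition, which their ranking did not use. All 12 with a positive difference had a transcript GC content below the median of the described genes (49.5%), from 35.8% for Cenpw to 44.5% for Rnf128. All 12 with a negative difference were above it, from 50.7% for Angptl4 to 60.5% for Emid2. As an example, the opening of the coding sequence is given for the gene with the smallest p in each direction. The lines give the first 120 coding bases from GENCODE vM21 transcripts (GRCm38), with G and C in capitals; Haus3 lies on the minus strand of chromosome 5 and Tkt on the plus strand of chromosome 14.
Haus3: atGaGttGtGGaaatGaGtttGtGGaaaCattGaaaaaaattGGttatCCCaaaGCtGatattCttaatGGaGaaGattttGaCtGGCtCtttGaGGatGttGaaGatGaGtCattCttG
Tkt: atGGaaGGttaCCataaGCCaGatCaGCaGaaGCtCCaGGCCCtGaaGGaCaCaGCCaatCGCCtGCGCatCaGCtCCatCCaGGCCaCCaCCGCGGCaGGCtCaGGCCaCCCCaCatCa
G and C make up 35.0% of these bases in Haus3 and 60.8% in Tkt. In the same stretch of the genes ranked next, they make up 60.8% in Prps2 (positive) and 61.7% in Nkd1 (negative). The coding opening thus did not separate the directions in that pair.

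The same gradient ran through the whole set. Across the 12907 described genes with a matched transcript, the difference of effects had a Spearman correlation of -0.728 with GC content, the cushion effect -0.667 and the ventricle effect 0.535. The genes were split into 10 equal bins by GC content. In the bin with the lowest GC content (median 39.6%) the median difference was 0.50, and in the bin with the highest (median 59.3%) it was -0.52. The gradient was steeper in replicates 2, from 0.72 in the lowest bin to -0.87 in the highest, than in replicates 1, from 0.27 to -0.14. By library, the deviation from the mean of the tissue was also set against GC content. In wild type cushion replicates 1 and 2 this deviation rose with GC content (Spearman 0.243 and 0.664). In mutant cushion replicates 1 and 2 it fell (-0.436 and -0.486). In ventricles it rose in mutant replicate 2 (0.511) and fell in wild type replicate 2 (-0.412). Replicate 1 was at -0.133 in mutant and in wild type ventricles. The source of this gradient was not tested.

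A correction that removed the trend with GC content and length from each library changed the picture. The correlation with GC content became -0.0432, and 742 symbols were left at an unadjusted p under 0.05 (4.97%) with 0 calls and a smallest adjusted p of 0.948. Opposite effects with separate libraries were found for 411 genes higher in cushions and 473 lower in cushions, so the larger of the directions turned, and same-direction effects for 333 higher and 243 lower in mutants of both tissues. Across genes the Pearson correlation between the effects became 0.051 and the Spearman correlation -0.0878. All 24 ranked genes kept their sign, with values from 0.24 to 1.31 for the positive and from -1.08 to -0.37 for the negative ones. The corrected value lay inside the uncorrected 95% interval for 8 of the 12 positive genes and for all 12 negative ones. For Haus3, Cenpw, Tmem47 and Tmem161b it was below that interval. Angptl4, Nkd1 and Tkt were at -1.08, -1.0 and -0.96, Pdzd9 was at 1.31, and Cenpw and Haus3 were at 0.31 and 0.40.

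**Figure D4:**
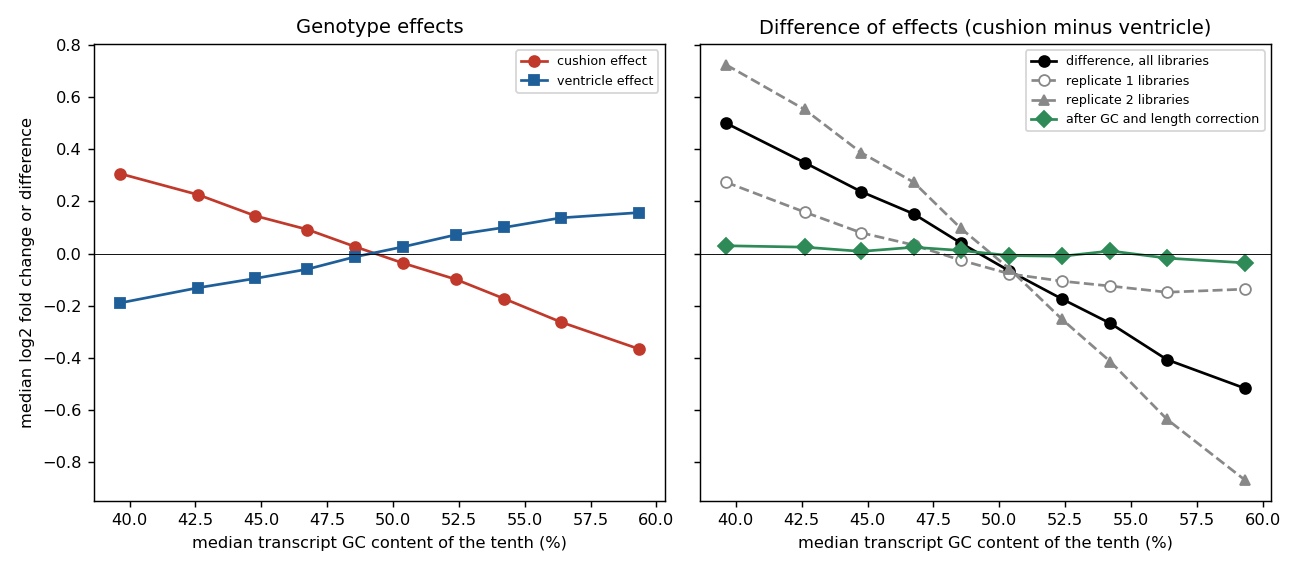
Median log2 fold change of mutant against wild type in cushions and in ventricles (left) and median difference of effects (right, cushion minus ventricle) for 10 equal bins of the described genes by transcript GC content (x axis, %). The effects run in opposite directions with GC content, the difference is steeper in replicates 2 than in replicates 1, and it is flat after the correction.

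Of 32 described cell cycle genes 21 had a positive difference, with a median of 0.11, or 0.07 after the correction, and 5 had an unadjusted p under 0.05 (background 7.75%). The median was 0.0015 in replicates 1 and 0.23 in replicates 2. Ccne2, a cyclin gene of S-phase entry, had a difference of 0.87, Ccnb1, the mitotic cyclin B1 gene, 0.63, and Bub1, a spindle checkpoint kinase gene, 0.58. After the correction these were 0.21, 0.34 and 0.15. Replication-dependent histones, whose RNA rises in S phase, lay on the other side, with 17 of 19 negative. Their median was -0.80, or -0.43 after the correction. Before the correction the median was 0.34 in replicates 1, -1.72 in replicates 2 and -0.16 without mutant ventricle replicate 2. Their sum was 991 and 910 CPM in mutant cushions, 1079 and 1337 CPM in wild type cushions, 732 and 1220 CPM in mutant ventricles and 791 and 839 CPM in wild type ventricles. The highest sum of each tissue was in wild type cushion replicate 2 and in mutant ventricle replicate 2. Histone genes have near-identical copies and their single values are uncertain.

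Endothelial markers were negative in 23 of 30, with a median of -0.25 that became -0.13 after the correction, and 5 had an unadjusted p under 0.05 (background 5.35%). Eng, the endoglin co-receptor gene of the TGF-beta family, was at 75.3 and 70.9 CPM in mutant cushions and at 92.3 and 98.3 CPM in wild type cushions. The ventricle libraries were at 97.5 and 86.3 CPM in mutants and at 80.3 and 54.3 CPM in wild type. Its libraries were separate in both tissues with opposite effects, and the difference was -0.83 (interval -1.41 to -0.25), or -0.43 after the correction. Sox18, an endothelial transcription factor gene, gave -0.999 and Tie1, an endothelial receptor kinase gene, -0.73, or -0.52 and -0.27 after the correction, and the cushion libraries of Tie1 overlapped. The summed markers were at 2338 and 2532 CPM in mutant cushions, 2298 and 2261 CPM in wild type cushions, 2996 and 2856 CPM in mutant ventricles and 2567 and 2252 CPM in wild type ventricles, so they were higher in mutants of both tissues. The part of the amount of endothelium in these values was not tested.

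Klf2 and laminar flow targets, by contrast, had no common direction: 11 of 21 were positive and the median was 0.06. Nos3, the endothelial nitric oxide synthase gene, was at 34.3 and 23.5 CPM in mutant cushions and at 45.9 and 42.7 CPM in wild type cushions, and at 42.2 and 40.9 CPM in mutant ventricles and 41.7 and 30.3 CPM in wild type ventricles. Cushion libraries were separate and ventricle libraries overlapped. Its difference was -0.82 and that of Gja4, a gap junction gene of arterial endothelium, -0.89, which the correction brought to -0.40 and -0.42. Hmox1, the heme oxygenase gene, gave -0.63, or -0.41 after the correction, with overlapping cushion libraries. Endocardial markers were positive in 5 of 11 and none had an unadjusted p under 0.05.

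Signalling and early response genes gave single contrasts. Id4 and Id3, both inhibitors of bHLH factors and targets of BMP signalling, went opposite ways. Id4 was at 10.2 and 9.16 CPM in mutant cushions and at 6.90 and 7.04 CPM in wild type cushions, and at 2.002 and 1.12 CPM in mutant ventricles and 3.05 and 2.75 CPM in wild type ventricles. Id3 was at 56.8 and 39.5 CPM in mutant cushions and at 63.2 and 78.98 CPM in wild type cushions, and at 17.6 and 21.2 CPM in mutant ventricles and 14.9 and 15.8 CPM in wild type ventricles. The difference was 1.36 for Id4 and -0.90 for Id3, and 1.01 and -0.57 after the correction. The BMP and TGF-beta list as a whole had a median of -0.02, with 9 of 22 positive. Hey2, a Notch target gene, had a difference of 0.57, or 0.37 after the correction, while the Notch list was positive in 7 of 16. Immediate early genes were negative in 13 of 17, with a median of -0.28 that became 0.04 after the correction. Nr4a1, an orphan nuclear receptor gene, was at 5.74 and 5.38 CPM in mutant cushions, against 9.25 and 12.54 CPM in wild type cushions, with ventricle libraries between 5.45 and 5.97 CPM in both genotypes. Its difference of -0.97 was -0.57 after the correction, and it fell in cushions under the block (edgeR adjusted p = 0.0399). Socs3, a feedback inhibitor of cytokine signalling, had a difference of -1.38, at -0.34 in replicates 1 and -2.37 in replicates 2, and at -0.93 after the correction.

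Valve and cushion matrix genes were negative in 22 of 36, with a median of -0.12. Their summed level differed more between replicate numbers than between genotypes, at 24790 and 13390 CPM in mutant cushions and 29640 and 15420 CPM in wild type cushions. Leaving out single libraries moved the median from -0.70 (without mutant cushion replicate 1) to 0.32 (without mutant ventricle replicate 1). Col6a2, a type VI collagen chain gene, had a difference of -0.78 and Fbln1, the fibulin 1 gene, -0.56, or -0.45 and -0.28 after the correction. Fbln1 fell in cushions under the block, by 0.49 on the log2 scale (edgeR adjusted p = 0.0488). With block and correction this fall did not pass (edgeR adjusted p = 0.130). Col1a1 at -1.06 and the cadherin gene Dchs1 at -1.003 had intervals from -3.70 to 1.57 and from -3.77 to 1.77, and their replicates 1 exceeded replicates 2 in every group. After the correction they were at -0.69 and -0.57. Both fell in cushions under the block without the correction (edgeR adjusted p = 0.0261 and 0.00689). Neither fall passed with block and correction (edgeR adjusted p = 0.316 and 0.179). The cushion mesenchyme factors were positive in 8 of 14, and Prrx2, a homeobox gene of mesenchyme, gave -1.18, or -0.61 after the correction.

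Muscle genes did not share a direction. Sarcomere genes were negative in 20 of 30 with a median of -0.19, which was 0.01 after the correction. Nebl, a thin filament anchoring gene, had 0.65, and Tcap, a Z-disc gene, -0.92, and their GC contents were 40.1% and 61.3%. After the correction they were at 0.26 and -0.41. Calcium handling and channel genes were positive in 12 of 19, among them Pln, which encodes the phospholamban regulator of the calcium pump, at 0.80 before and 0.23 after the correction. Nexn, a Z-disc actin-binding gene, and Tecrl, a gene of cardiac rhythm, were at 0.90 and 1.07, or 0.41 and 0.42 after the correction. Tecrl rose in cushions under the block (edgeR adjusted p = 0.0261), but not past the threshold with block and correction (edgeR adjusted p = 0.315). Mybpc1, a slow skeletal myosin-binding gene, had the largest fitted value among the genes named by rule, 2.66, with an interval from -0.77 to 6.08. It was at 17.4 and 3.08 CPM in mutant cushions and at 2.58 and 0.95 CPM in wild type cushions, and at 10.2 and 3.88 CPM in mutant ventricles and 10.6 and 4.65 CPM in wild type ventricles. Mutant cushion replicate 1 was the highest cushion library, and the ventricle libraries overlapped. Mybpc1 rose in cushions under the block (edgeR adjusted p = 0.00481).

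Energy metabolism was evenly split, with 18 of 37 genes of fatty acid oxidation and the respiratory chain positive. Cycs, the cytochrome c gene, was at 26.3 and 26.9 CPM in mutant cushions and at 16.5 and 16.4 CPM in wild type cushions. In ventricles it was at 36.1 and 36.1 CPM in mutants and at 40.0 and 63.1 CPM in wild type, so libraries were separate in both tissues with opposite effects. The difference was 1.20 (interval 0.56 to 1.85), and 0.74 after the correction. In the hypoxia and glycolysis list 13 of 27 were positive, with Higd1a, a hypoxia-induced mitochondrial gene, at 0.51 and Pfkm, the muscle phosphofructokinase gene, at -0.46, or 0.61 and -0.16 after the correction. Cytosolic ribosomal protein genes were negative in 27 of 47, with a median of -0.27 that was 0.10 without mutant ventricle replicate 2. Rpl15 and Rps6 had 0.73 and 0.72 and Rps14 had -0.82, or 0.38, 1.13 and -0.45 after the correction, and all have processed copies in the genome that make single values uncertain.

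Nuclear noncoding RNAs and snoRNA host genes had the highest median of the lists, 0.56, with 14 of 17 positive and 5 at an unadjusted p under 0.05 (background 7.75%). The snoRNA hosts Snhg5, Gas5 and Snhg1 had differences of 0.64, 0.61 and 0.56, each with separate libraries and opposite effects in the tissues. After the correction they were at 0.38, 0.23 and 0.08, and the list median was 0.18. The list was made to track nuclear RNA and RNA quality. Its sum was 5544 and 3930 CPM in mutant cushions, 5054 and 4021 CPM in wild type cushions, 5891 and 4424 CPM in mutant ventricles and 8016 and 7150 CPM in wild type ventricles, so the wild type ventricle libraries were the highest. Stress genes were positive in 11 of 20, and Dnajb9, Hspe1 and Hsp90aa1, which encode chaperones, had 0.73, 0.67 and 0.53, or 0.27, 0.40 and 0.22 after the correction.

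Markers of other cells varied by library. Epicardial markers were positive in 10 of 15 with a median of 0.32 before and after the correction, but 0.77 in replicates 1, 0.03 in replicates 2 and -0.04 without wild type cushion replicate 1. Tbx18, an epicardial transcription factor gene, was at 156 and 111 CPM in mutant cushions and at 102 and 82.2 CPM in wild type cushions, and at 113 and 92.3 CPM in mutant ventricles and 122 and 114 CPM in wild type ventricles. Libraries were separate in both tissues, and the difference of 0.74 was 0.63 after the correction. Tbx18 rose in cushions under the block (edgeR adjusted p = 0.0488). Erythroid markers were positive in 13 of 16, with a median of 0.37 that ran from -0.92 without mutant cushion replicate 1 to 1.14 without mutant ventricle replicate 1. Tfrc, the transferrin receptor gene, which dividing cells also express, had 0.69, or 0.22 after the correction. Leukocyte markers were positive in 9 of 17 (median 0.00), with Ptprc, the CD45 gene, at 7.50 and 8.73 CPM in mutant cushions, 4.55 and 4.08 CPM in wild type cushions, 4.004 and 4.11 CPM in mutant ventricles and 3.37 and 4.70 CPM in wild type ventricles. Its cushion libraries were separate and its ventricle libraries overlapped, for a difference of 0.90, or 0.45 after the correction.

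Platelet and megakaryocyte markers were negative in 6 of 9, with a median of -0.15 that was -0.36 after the correction. Plek (0.89) and Rab27b (0.95) were positive and Treml1 (-1.42) negative, and these were at 0.52, 0.43 and -1.05 after the correction. Plek and Rab27b rose in cushions under the block (edgeR adjusted p = 0.0176 and 0.00824). Interferon-stimulated genes were positive in 10 of 14, with a median of 0.28 that was -0.09 without mutant cushion replicate 2, and Ifit2 gave 0.58, or 0.19 after the correction. Smooth muscle and pericyte markers were negative in 10 of 11 with a median of -0.28, or -0.06 after the correction, and Smtn, the smoothelin gene, gave -0.69, or -0.20 after the correction. Markers of endothelial activation (6 of 11 positive), natriuretic peptides and chamber factors (10 of 19) and neural crest and neural genes (4 of 6) had medians of 0.06, 0.07 and 0.36, the last 0.05 after the correction.

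**Figure D5:**
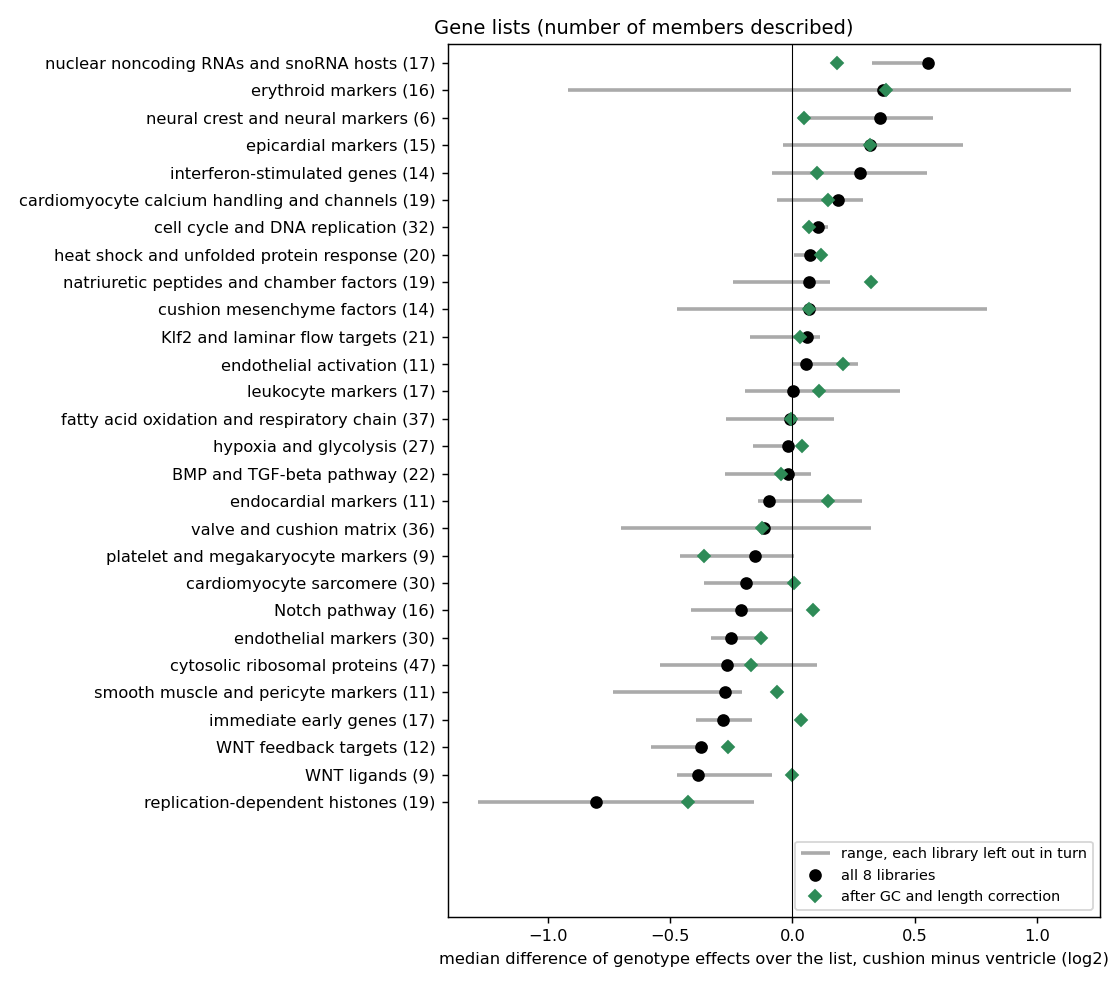
Median difference of genotype effects (x axis, log2, cushion minus ventricle) of each gene list, with all 8 libraries (black), after correction for GC content and length (green) and as the range when each library is left out in turn (grey line). WNT feedback targets, endothelial markers, replication-dependent histones and smooth muscle and pericyte markers stay below 0 in each of these. Nuclear noncoding RNAs and cell cycle, stress and neural genes stay above 0. The lines of erythroid markers, cushion mesenchyme factors and valve matrix cross 0.

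The largest opposite effects with separate libraries were mostly those of low-expressed genes. On the negative side Col4a3, a basement membrane collagen gene, was at 2.35 and 1.997 CPM in mutant cushions and at 8.50 and 3.96 CPM in wild type cushions, and at 1.10 and 1.61 CPM in mutant ventricles and 1.02 and 0.898 CPM in wild type ventricles. Its difference was -2.01 (interval -3.37 to -0.65), and -1.88 after the correction. Aqp8 (a water channel), Relb (an NF-kappaB subunit), Map3k6 (a stress kinase), Zfp524 and Rapsn followed, from -1.76 to -1.47, all at under 10 CPM in every library. On the positive side Pdzd9 was at 6.33 and 6.82 CPM in mutant cushions and at 2.91 and 3.28 CPM in wild type cushions, and at 7.27 and 8.93 CPM in mutant ventricles and 8.98 and 15.3 CPM in wild type ventricles. Its difference was 1.66 (interval 0.79 to 2.54). Fam46d and Ccdc39 (a ciliary protein) had 1.54 and 1.52. H2afz and Ppia had 1.40 and 1.39 and kept 1.29 and 1.37 after the correction, but both have many processed copies and their counts are uncertain.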

How the data were processed

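Total RNA of AV cushions and ventricles was sequenced after ribosomal RNA removal, with a stranded kit per the labels' protocols. Bowtie 0.12.7 and mm9 are named in the submitters' processing notes; which program counted reads, with which annotation and strand setting, is not given in the sources used here, so overlapping and antisense genes are uncertain. The authors deposited raw counts, whole numbers taken unchanged. The 8 deposited tables are identical, so 1 was read (28644 rows, 22869 symbols), keeping the row with the largest total for each symbol. No coordinates are given, since the reference is GRCm38.

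Counts were tested with edgeR 4.0.16 (R 4.3.3): TMM normalisation, filtering by expression, robust quasi-likelihood fit over 4 groups, two-sided tests of the difference of effects, Benjamini-Hochberg adjustment over all 14940 symbols, threshold 0.05. DESeq2 1.42.0 and limma 3.58.1 were alternatives. CPM are TMM-scaled. The GC and length correction fits, in each library, splines in GC content and in log length, each with 5 degrees of freedom. The fitted trend enters the model as an offset. GC content and length are those of the longest GENCODE vM21 transcript (98.1% of symbols matched). The fit without the block was also run on simulated counts. These held no tissue difference, GC trend or shared deviation of replicates, so that run does not cover such features. The deviations of same-numbered replicates correlated in all 6 pairs of groups (Pearson 0.341 to 0.522), so replicate number was used as a pairing that rests on the data, since its meaning is not stated in the labels.

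The members and all 29 lists were chosen with earlier results of these data known. Genes named are, by rule, the 12 smallest p in each direction, the 8 smallest with the block, the 6 largest opposite effects with separate libraries, at most 3 members per list (smallest p), and Klf2, Nfatc1 and Wnt9b; of the list members, those with an unadjusted p under 0.05 were used. Predicted genes and small RNAs were left out. The list of Y-linked genes, a sample check, is not described.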

Additional observations from a re-analysis of the deposited data

How the results depend on the processing

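With all 8 libraries the difference of effects had 0 calls under every other scaling, filter, tool, row choice and correction, and 0 under the replicate block (smallest adjusted p 0.0852), with or without GC correction. Leaving out 1 library gave 0 calls without the block, and 0 to 580 positive and 0 to 816 negative with it. The block with GC correction gave 0 to 102 positive and 0 to 117 negative, with calls only without mutant cushion replicate 1 (102 and 117) or mutant cushion replicate 2 (35 and 11). The leave-one-out settings with GC correction were chosen after seeing the data. A group left with 1 library is assumed to vary like the others. In cushions calls were 0 in either direction, but 6 positive and 19 negative with DESeq2, 44 and 85 with the block, 26 and 46 with block and correction, and 0 and 5 with no filter on low counts. Leaving out 1 library gave 0 to 1 positive cushion calls, and with the block 2 to 317 positive and 14 to 616 negative. In ventricles 1 gene, Klf2, was called negative with DESeq2, with the block and with block and correction. Leaving out 1 library there gave 0 to 1 negative, and with the block 0 to 5 positive and 0 to 9 negative. Opposite effects with separate libraries went to 411 (cushion higher) and 473 (cushion lower) after GC correction, and same-direction effects to 333 higher. The Spearman correlation with GC content became -0.0432, and -0.0413 with the block. Described genes numbered 10720 at 5 CPM or more and 12569 at 1 CPM in each library, with 0 calls. Signs turned for Wnt9b under block and correction (0.0013), and for 7 genes when 1 library was left out, with these ranges: Klf2 -0.59 to 1.39, Nfatc1 -1.16 to 0.62, Wnt9b -1.21 to 0.55, Lrp1 -1.97 to 0.18, Col1a1 -2.03 to 0.25, Dchs1 -2.03 to 0.14 and Pln -0.10 to 1.21. The cause was not tested. With 2 libraries a group, the intervals of the 24 ranked genes are 0.77 to 1.76 log2 units wide, and no difference of any size passed by adjusted p with all 8 libraries.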
